A study of Schizosaccharomyces pombe with 27 samples.

Results

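All 9 S. pombe strains were sequenced in 2 experiments, and the comparison described here sets experiment 2 against experiment 1 within each strain. It uses all 27 samples of the series. The 18 samples of experiment 1 are 2 sequencing runs of each of 9 libraries and were summed, so that each experiment was represented by 9 libraries, 1 per strain. The strains combine 3 genotypes with 3 mutated DNA polymerases. WT strains carry the native Polδ genes only, 2×Polδ strains carry 1 extra cassette of the 4 Polδ subunit genes (cdc1, cdc27, cdc6 and cdm1), and 4×Polδ strains carry 3 extra cassettes, all on chromosome I. The mutation was cdc6 L591G in the strains for Polδ (856, RZ57 and RZ112), cdc20 M630F in those for Polε (655, RZ62 and RZ118) and pol1 L850F in those for Polα (1141, RZ68 and RZ116). In the Polδ strains the cassettes also carry the mutated cdc6, whereas the cassettes of the Polε and Polα strains carry unmutated cdc6. Shared by every strain were mating type h-, ade6-704 (the ade6 allele of the WT strain for Polε is not specified), leu1-32, ura4-D18 (with ura4 restored by 1 cassette in 2×Polδ and 4×Polδ), deletion of rnh201 (by kanR in WT and by hygR in the others), untreated culture in YES medium and exponential growth. Each strain is 1 clone with 1 library per experiment, so p-values below measure the spread among strains, and strain numbers are replaced by names such as 2×Polδ Polε, which is the 2×Polδ strain with mutated Polε.

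In polymerase usage sequencing (Pu-Seq), a replicative polymerase is mutated so that it inserts ribonucleotides more often, and the deletion of rnh201, which encodes the catalytic subunit of RNase H2, leaves them in the DNA. Mapped ribonucleotides are then taken to mark mainly the sites where that polymerase acted and the strand it made. Polε acts mainly on the leading strand, while Polα primes and Polδ completes the lagging strand, so the strand bias of each enzyme changes sign at an origin. The polymerase track, which runs from -1 to 1, is the excess of top-strand over bottom-strand counts as a share of both. In these tracks, leftward-moving forks give positive values for Polδ and Polα and negative values for Polε.

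The methods describe 2 ways of making libraries for every strain. In the first, DNA was cut at ribonucleotides with alkali, single strands were selected by size and copied from random primers. In the other, a modified GLOE-Seq procedure, RNase H2 nicked the DNA and adapters were ligated directly to the resulting ends before sonication. The labels do not say which experiment used which procedure. Experiment is therefore a label for everything that differed between the sets (library procedure, culture, sequencing run and depth), and these cannot be told apart. Experiment 1 held 34475309 to 43905303 counts per library (761 to 960 in the median 300 bp bin), and experiment 2 held 16062711 to 24590546 (379 to 549). The top strand took 49.9% to 50.5% of the counts in every library. Markers of the strains were checked in both experiments: rnh201 stood at 0.245 ± 0.023 and 0.229 ± 0.048 of the median bin (SD, n = 9 each) and ura4 was present in 2×Polδ and 4×Polδ at 0.899 ± 0.201 and 0.975 ± 0.206 (n = 6).

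Sequences of 5 of the bins discussed below are shown because total counts moved with GC content across bins, as described below. They were read from the RefSeq assembly ASM294v3 on the top strand, 5′ to 3′, and the longest run made only of A and T is in capitals. The choice was limited to bins without repeated sequence and outside untranslated parts of mRNAs. The first lost counts in experiment 2 in all 9 strains, the next 2 gained counts, and the last 2 moved towards one strand.
II:447301-447600 (lower): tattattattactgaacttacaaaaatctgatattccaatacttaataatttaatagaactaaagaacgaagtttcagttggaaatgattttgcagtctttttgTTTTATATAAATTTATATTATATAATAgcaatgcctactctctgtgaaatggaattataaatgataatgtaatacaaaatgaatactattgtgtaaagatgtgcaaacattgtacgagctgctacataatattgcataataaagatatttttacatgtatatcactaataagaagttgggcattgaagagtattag
II:2142301-2142600 (higher, coding sequence of srp40): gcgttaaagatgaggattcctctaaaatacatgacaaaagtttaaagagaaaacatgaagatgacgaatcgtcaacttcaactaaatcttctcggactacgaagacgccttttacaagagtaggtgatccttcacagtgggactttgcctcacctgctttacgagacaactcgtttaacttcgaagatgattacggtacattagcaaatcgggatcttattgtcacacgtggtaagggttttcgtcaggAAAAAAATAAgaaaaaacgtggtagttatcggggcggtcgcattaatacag
III:2022901-2023200 (higher, lncRNA genes): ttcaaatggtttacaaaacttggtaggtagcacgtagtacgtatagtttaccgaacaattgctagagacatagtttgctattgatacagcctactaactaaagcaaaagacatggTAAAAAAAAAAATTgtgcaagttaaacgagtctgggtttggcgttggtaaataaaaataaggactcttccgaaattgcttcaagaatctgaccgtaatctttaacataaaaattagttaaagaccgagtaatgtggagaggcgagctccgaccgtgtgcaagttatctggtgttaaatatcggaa
II:4536001-4536300 (towards the top strand): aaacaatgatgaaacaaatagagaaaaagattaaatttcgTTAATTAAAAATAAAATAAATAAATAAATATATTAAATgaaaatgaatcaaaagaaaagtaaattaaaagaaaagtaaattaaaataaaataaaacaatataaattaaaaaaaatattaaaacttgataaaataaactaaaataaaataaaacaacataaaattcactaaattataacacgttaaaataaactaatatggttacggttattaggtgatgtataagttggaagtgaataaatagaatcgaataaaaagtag
I:2959501-2959800 (towards the bottom strand): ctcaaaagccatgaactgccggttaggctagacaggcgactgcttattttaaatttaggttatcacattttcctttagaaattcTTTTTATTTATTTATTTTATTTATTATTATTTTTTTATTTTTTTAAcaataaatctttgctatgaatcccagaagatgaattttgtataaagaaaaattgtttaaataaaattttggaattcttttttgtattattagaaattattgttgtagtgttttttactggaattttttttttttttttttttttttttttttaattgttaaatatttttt
The bin with lower counts has 24.7% G and C, against 36% in the median bin, and an A/T-only run of 27 bases. Only 1.39% of all bins hold a run at least as long. The 2 bins with higher counts have 40.3% and 36.7% G and C and runs of 10 and 14 bases, lengths that 65.2% and 24.8% of bins reach or exceed. The strand-biased pair has 15.7% and 19.7% G and C with runs of 38 and 46 bases, lengths that 0.198% and 0.0382% of bins reach or exceed. This pair is not typical of the bins called for strand bias by the test described below. In both directions such bins had a median GC of 35.3% and a median longest run of 11 bases, against 36% and 11 in all bins tested. Another leading bin towards the bottom strand, II:698101-698400, has 34.7% G and C and a longest run of 7 bases.

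Total counts per bin changed between the experiments in every strain, and more bins lost counts than gained them. Totals were scaled to the median bin of their library, so that the median bin stands at 1. In the test used here (edgeR's quasi-likelihood test paired by strain), a bin was called when its Benjamini-Hochberg adjusted p was under 0.05, the strain means differed by at least 1.5-fold and all 9 strains moved the same way. Of 41859 bins tested, 5787 were lower in experiment 2 (13.8%) and 1885 were higher (4.5%). By sign alone, with no rule on size or adjusted p, 10812 bins were lower and 9071 higher in all 9 strains, 47.5% of the bins together. Within single strains, 16.8% (4×Polδ Polε) to 32.7% (2×Polδ Polδ) of bins differed by 1.5-fold or more, and between the 2 runs of experiment 1, which resequenced 1 library and so carry sequencing noise only, at most 0.0311% did. Profiles of scaled totals followed the experiment more than the strain. Across bins, Pearson's r was 0.425 to 0.599 between the experiments of 1 strain, and 0.872 to 0.971 between strains of the same polymerase within an experiment (41859 bins in each, which share libraries and base composition).

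The bins that lost most counts were nearly empty in experiment 2. The bin II:447301-447600, with no annotated gene, went from 0.648 to 0.956 (median 0.870) down to 0.0185 to 0.115 (median 0.0604), a log2 ratio of -3.88 ± 0.78 (SD, n = 9, adjusted p = 3.03e-08 by edgeR). Every strain was higher in experiment 1 than any in experiment 2. A similar ratio of -3.88 ± 0.84 was found at III:231901-232200 in SPOM_SPNCRNA.1120. The largest ratio, -5.19 ± 1.26, was at II:4539601-4539900, a repeated sequence in the last, truncated bin of the chromosome, where reads may be shared with copies elsewhere. In none of these 3 bins did the experiments overlap, which their choice as the largest differences makes likely.

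Gains were smaller. The bin II:2142301-2142600 lies in the coding sequence of srp40, whose budding yeast namesake is a serine-rich nucleolar protein. Its scaled total in experiment 1 was 0.183 to 0.308, with a median of 0.219, and in experiment 2 it was 0.822 to 1.22, with a median of 0.979. This bin, depleted in all 9 libraries of experiment 1, was thus close to the median bin in experiment 2, and its log2 ratio was 2.08 ± 0.29 (SD, n = 9, adjusted p = 1.28e-08 by edgeR). At III:2194801-2195100 in psi1, which encodes a DnaJ-type chaperone, values were 0.255 to 0.522 (median 0.408) and 0.958 to 1.83 (median 1.10), a log2 ratio of 1.68 ± 0.41. The end of pgk1, the gene of phosphoglycerate kinase, had 0.198 to 0.365 (median 0.240) and 0.718 to 0.857 (median 0.752) at II:4159201-4159500. None of these 3 bins overlapped between experiments, but they were named for the size of their difference. The share of all bins without overlap is not given here. The bin III:2022901-2023200, printed above as the next by size that met the limits on sequences, holds 2 lncRNA genes and had a log2 ratio of 1.41 ± 0.15 (1.19 to 1.66 over strains). The other 2 leading bins lie in rRNA genes at opposite ends of chromosome III (III:12001-12300 and III:2451901-2452200), with medians of 4.48 and 5.02 in experiment 1 and 12.9 and 14.5 in experiment 2. Their repeated sequence means that counts may be divided among copies.

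Most called bins lay outside longer runs. Runs of at least 3 called bins, with gaps of at most 1, formed 505 regions of lower counts (1886 called bins, median length 1.2 kb) and 36 regions of higher counts (143 called bins). When whole 3 kb windows were tested by the same rule, 0.788% of windows were lower and 0.0716% higher. The longest region of higher counts was II:689401-697800, 8.4 kb inside SPOM_SPBPJ4664.02, a repeat-rich gene annotated as a glycoprotein. All of its 28 bins were called and all hold repeated sequence, with a mean log2 ratio of 1.06 ± 0.46 (0.38 to 1.59 over strains). Further such regions covered the neighbourhood of srp40 (1.04 ± 0.16), pfl5, a flocculin-like cell surface gene (0.88 ± 0.25), pgk1 (0.85 ± 0.21) and sup35, which encodes a translation release factor (0.82 ± 0.12). Among regions of lower counts, the largest means were at I:4253401-4254300 in pcr1, a transcription factor gene (-2.22 ± 0.47), and at I:4183801-4185300, which holds a dispersed 5S rRNA gene and part of mal2, a kinetochore gene (-2.10 ± 0.55). The longest, II:1598701-1603500, held 9 tRNA genes inside the left edge of centromere II and had a mean log2 ratio of -1.15 ± 0.37. Repeated sequence was found in 15 of its bins, 13 bins were called, and the copies at other centromeres may share reads. A centromere is here the widest gap between protein-coding genes on a chromosome, not a centromere with annotated limits.

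GC content moved with the totals in all 9 strains. In experiment 1, the slope of log2 scaled total per 10 percentage points of GC was between -0.094 (4×Polδ Polα) and 0.16 (4×Polδ Polδ). Experiment 2 gave slopes of 0.44 to 0.99, all above every slope of experiment 1. The slope rose by 0.60 ± 0.19 (SD, 9 of 9 strains), with p = 0.00391 in a two-sided exact permutation test of signs, the smallest that 9 pairs allow, and an adjusted p of 0.0195 over the 10 single-value tests of this comparison. The rise was smallest in the 2×Polδ and 4×Polδ strains for Polε (0.36 and 0.38), while WT Polε had 0.81 and 2×Polδ Polδ 0.93. Between polymerases it did not differ beyond the spread of strains (exact permutation test of polymerase labels, p = 0.536). At 22% GC, the median bin was 1.22 to 2.55 log2 units lower in experiment 2, depending on strain, and the curves crossed 0 near the genome's median GC. By quintiles of GC, the poorest bins had a median log2 ratio of -0.61 ± 0.21 and the richest one of 0.19 ± 0.08 (SD, n = 9, each of 1 sign in all strains).

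**Figure D1:**
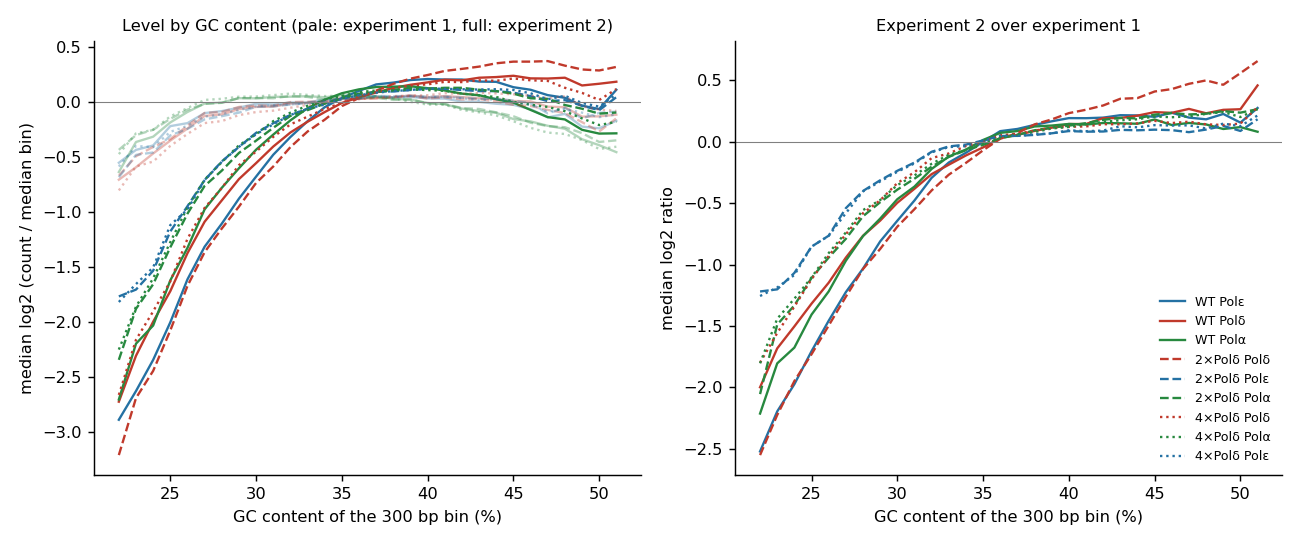
Median log2 scaled total (left, experiment 1 in pale and experiment 2 in full colour) and median log2 ratio of experiment 2 over experiment 1 (right) of 300 bp bins at each percent of GC, 1 line per strain. At 22% GC every strain lies below 0 in the right panel, from -1.22 to -2.55, and the lines for 2×Polδ Polε and 4×Polδ Polε lie above the others.

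Long A/T-only stretches went with a loss beyond that of their GC content. Bins whose longest run was under 12 bases had a mean log2 ratio of 0.09, and those with runs of 25 bases or more (748 bins, median GC 28.0%) had -0.93, with -0.68 to -1.21 over strains. Relative to bins of the same GC percent, the mean for these runs was -0.28. Runs of 20 to 24 bases gave -0.76, and -0.26 relative to the same GC. The sequence printed above for II:447301-447600 holds such a run.

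Annotated features were then compared as classes, with the median log2 ratio of their bins in each strain. Of 25 classes, 22 differed between experiments with an adjusted p under 0.05 (two-sided exact permutation test of signs over 9 strains, Benjamini-Hochberg over the 25). This test asks whether a class moved in the same direction across strains, and all bins share the same libraries. Genes transcribed by RNA polymerase III showed the lowest medians among gene classes. For tRNA genes the median ratio was -0.72 ± 0.28 (SD, n = 9, lower in 9 of 9, exact permutation test, adjusted p = 0.00543), and 110 of their 200 bins were called lower, or 55.0%, against 13.8% of all bins. Dispersed 5S rRNA genes had -0.68 ± 0.30, with 28 of 55 bins called lower. Repeated sequence, whose copies may share reads, was found in 69.5% of the tRNA gene bins and 78.2% of the 5S rRNA gene bins. Both stayed low relative to bins of the same GC percent, at -0.52 for tRNA genes and -0.57 for 5S rRNA genes, again in 9 of 9 strains. In the strains for Polε with extra Polδ the tRNA medians were -0.30 (2×Polδ) and -0.33 (4×Polδ), against -0.94 in WT Polε and -0.62 to -1.14 in the 6 strains for Polδ and Polα.

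Other classes lay nearer to their GC content. Bins with no annotated gene had -0.57 ± 0.24, which became -0.071 relative to bins of the same GC. Long terminal repeats of retrotransposons had -0.42 ± 0.18 (-0.20 at the same GC, lower in 9 of 9 strains). Centromeres, as defined above by gaps between genes, had -0.33 ± 0.18 and -0.10 at the same GC. The mating-type region from mat1 to mat3 had -0.25 ± 0.12 and -0.091. For the outer 50 kb of chromosome II, -0.21 ± 0.16 turned to 0.0042 at the same GC. Tf2 retrotransposons had -0.05 ± 0.11 (exact permutation test, adjusted p = 0.236) and the wtf spore-killer genes -0.056 ± 0.084 (adjusted p = 0.119), and at the same GC these became 0.0369 and 0.0253. Single Tf2 elements ranged from -0.09 (Tf2-11) to -0.02 (Tf2-12), but their copies share reads and cannot be told apart.

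Protein-coding classes moved little. Glycolysis genes rose by 0.18 ± 0.12 and ribosomal protein genes by 0.09 ± 0.05 (9 of 9 strains each, n = 9), which became 0.042 and 0.041 at the same GC. The histone genes, which encode the core of the nucleosome, fell by 0.17 ± 0.06 on the log2 scale, and by 0.18 at the same GC, in 9 of 9 strains. Of their 33 bins, 8 were called lower (24.2%, against 13.8% of all bins) and 1 higher (3.03%, against 4.5%). All protein-coding genes together had a median of 0.018 ± 0.010 (9 of 9 strains), though the mean over their bins was -0.039, and lncRNA genes had -0.013 ± 0.013, which turned to 0.025 with TMM scaling and 0.003 at the same GC. The highest class was that of the rRNA genes at the ends of chromosome III, with 0.41 ± 0.29 (8 of 9 strains), where WT Polε (-0.03) and 2×Polδ Polα (0.01) stood lowest and 4×Polδ Polε (0.83) highest. The order of the strains at these repeats therefore differed from that at tRNA genes.

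**Figure D2:**
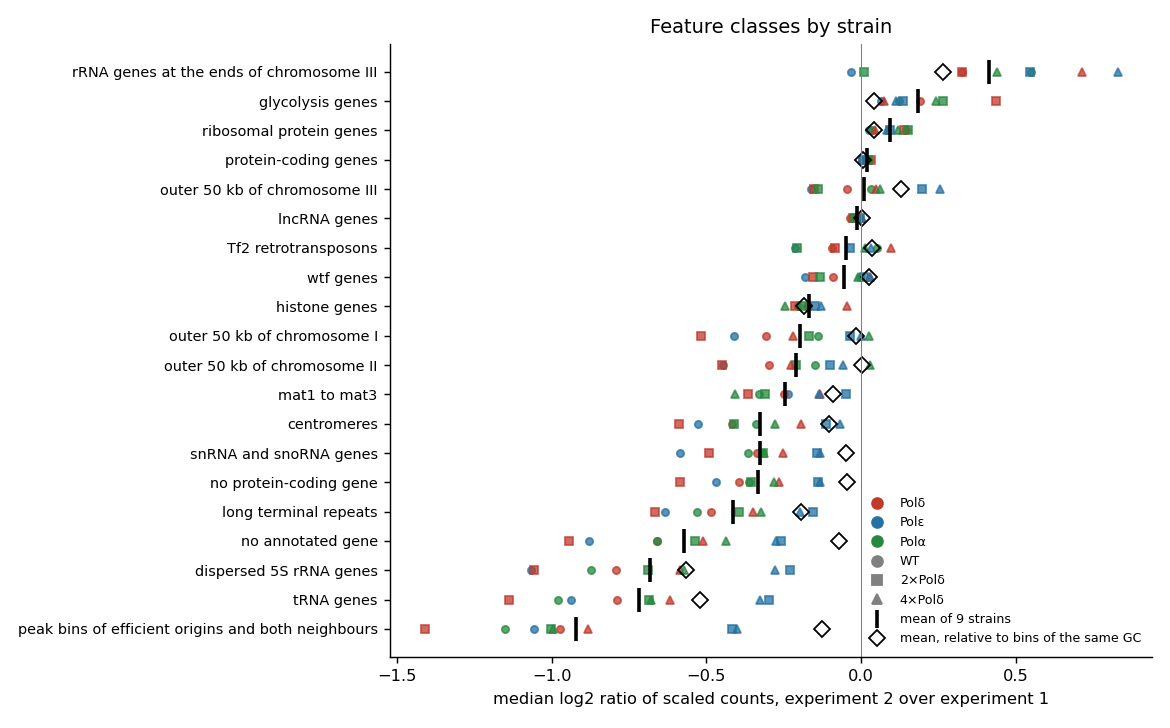
Median log2 ratio of scaled counts, experiment 2 over experiment 1, for each feature class (rows), with 1 point per strain, coloured by polymerase and shaped by genotype. Black bars are means of 9 strains and open diamonds the means relative to bins of the same GC percent; tRNA genes stay at -0.52 and dispersed 5S rRNA genes at -0.57 by that measure, while bins with no annotated gene go from -0.57 to -0.071.

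Single genes were examined from a list of 31. Of these, 6 passed the exact permutation test of signs after adjustment over the 31. The glycolysis gene eno101 (enolase) rose from 0.616 ± 0.074 to 0.752 ± 0.112 of the median bin per bin (SD, n = 9), and pgk1 from 0.649 ± 0.067 to 0.796 ± 0.101. Their log2 ratios were 0.28 ± 0.19 and 0.29 ± 0.10, positive in 9 of 9 strains (adjusted p = 0.0303 each, exact permutation test). The subtelomeric helicase gene tlh1 rose by 0.20 ± 0.16 in 8 of 9 strains (adjusted p = 0.0404, exact permutation test), with all of its bins repeated elsewhere. The Polδ gene cdc27, a subunit that binds PCNA, fell by 0.37 ± 0.09 on the log2 scale and cdc6, the catalytic subunit, by 0.13 ± 0.05, each in 9 of 9 strains (adjusted p = 0.0303, exact permutation test). The other Polδ subunit genes had 0.036 ± 0.093 (cdc1) and -0.07 ± 0.14 (cdm1). The mean GC of the bins was 32.1% for cdc27, 36.4% for cdc6, 37.2% for cdm1 and 39.4% for cdc1. The histone H2B gene htb1 fell by 0.16 ± 0.13 in 8 of 9 strains (adjusted p = 0.0404, exact permutation test). The other histone genes on the list, hht1 (0.103 ± 0.131) and hhf1 (0.096 ± 0.138), were higher in 7 of 9 strains each. Neither passed (adjusted p = 0.0991 and 0.164, exact permutation test). The actin gene act1 had -0.17 ± 0.13 (adjusted p = 0.0692, exact permutation test), and neither cdc20 (0.01 ± 0.07) nor pol1 (0.03 ± 0.04) passed.

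Strand bias changed in many bins in the same physical direction for all polymerases. The test was the strand-by-experiment term of the edgeR fit. A bin was called with an adjusted p under 0.05, the same sign in all 9 strains and a mean track difference of at least 0.1. Of 41859 bins, 8409 moved towards the top strand in experiment 2 (20.1%) and 8290 towards the bottom strand (19.8%). These shares and those for total counts rest on unlike rules on size. By sign alone, with no rule on size or adjusted p, 41.4% of bins kept 1 sign in strand bias and 47.5% in total counts. If a change in fork direction is sought instead, Polε has to move opposite to Polδ and Polα. By that contrast, 168 bins moved towards leftward forks (0.401%) and 183 towards rightward forks (0.437%). The 9 strains shared the sign in 41.4% of bins with strands as they are and in 1.37% with the sign of Polε turned. The median absolute mean difference was 0.115 and 0.0549, respectively. Between the runs of experiment 1, again of 1 library, a track difference of 0.1 was reached in 10.6% to 14.8% of bins of a strain, and between experiments in 53.4% to 69.4%. In 3 kb windows, 2.70% moved towards the top strand and 2.39% towards the bottom strand.

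The bins that led this contrast crossed from one strand to the other. At I:2538001-2538300 in SPOM_SPAC4A8.02C, the mean track went from -0.751 to 0.702 in Polδ strains, from 0.0737 to 0.937 in Polε strains and from -0.747 to 0.828 in Polα strains (n = 3 each). Polδ and Polα thus changed sign and Polε, which lay near 0, took the same strand. The mean difference was 1.3 ± 0.33 (SD, n = 9, adjusted p = 7.48e-11 by edgeR). Libraries held 675 to 1575 counts in this bin in experiment 1 and 73 to 151 in experiment 2. At II:4536001-4536300, printed above, the tracks went from -0.574, -0.530 and -0.0889 (Polδ, Polε and Polα) to 0.795, 0.688 and 0.927, while scaled totals of 4.04 to 6.26 (median 4.56) in experiment 1 became 0.482 to 1.78 (median 0.858). The opposite move was seen at I:5570701-5571000 near the right end of the chromosome, with 0.544, 0.165 and 0.509 before and -0.877, -0.862 and -0.930 after, a difference of -1.3 ± 0.21. That bin is repeated sequence, whose copies may share reads, and its counts per library went from 488 to 684 down to 12 to 109. In the recombination gene rad57 (I:2124301-2124600), the tracks went from 0.591, -0.0602 and 0.590 to -0.673, -0.880 and -0.648. Counts per library were 507 to 973 in experiment 1 and 68 to 207 in experiment 2. At I:2959501-2959800, also printed above, the Polδ and Polα tracks were 0.603 and 0.623 and became -0.917 and -0.980, and the Polε track moved from -0.841 to -0.993. The strains ranged from -0.144 to -1.62 there, and Polε already stood near its limit in experiment 1. Its libraries held 597 to 803 counts in experiment 1 and 17 to 199 in experiment 2, so the later tracks rest on few reads. The remaining 3 of the 5 leading bins towards the top strand moved by 1.10 to 1.19.

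Strand bias also moved where total counts rose or overlapped between experiments. The bin II:698101-698400 in SPOM_SPBPJ4664.02, beside the 8.4 kb region of higher counts, had median scaled totals of 0.666 (0.474 to 1.18) and 1.33 (1.05 to 1.88) in experiments 1 and 2, and moved by -1.03 ± 0.10 in track, with all 9 strains between -0.88 and -1.21. At I:1852201-1852500 in SPOM_SPAC1399.01C the totals of the experiments overlapped (medians 1.11 and 0.834, lower in experiment 2 in 7 of 9 strains) and the track moved by -1.06 ± 0.10. Runs of called bins formed 678 regions towards the top strand and 642 towards the bottom, with a median length of 1.5 kb and at most 4.5 kb. The largest regional means were 0.473 ± 0.069 at rpb4, an RNA polymerase II subunit gene, and -0.481 ± 0.183 at II:1455901-1456800, where no gene is annotated. The region of tdh1 (glyceraldehyde-3-phosphate dehydrogenase) had -0.441 ± 0.191, with 2 of its 3 bins in repeated sequence. Bins called for both total counts and strand bias numbered 3786, or 49.3% of the calls for total counts and 22.7% of those for strand bias. Over all bins, 20.1% were called for strand bias towards the top strand and 19.8% towards the bottom strand. For total counts, 13.8% of all bins were called lower and 4.5% higher. Each share of the overlap lay above the sum of both directions over all bins, an excess that was not tested.

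The GC content of the neighbouring bins went with the direction of the strand change. Bins were placed into 5 groups of near-equal size by the GC of the bin to the right minus that of the bin to the left. In the lowest group (median difference -9 percentage points) the track changed by a mean of -0.0520, and in the highest (9 points) by 0.0525. The slope per 10 percentage points rose by 0.0519 ± 0.0352 between experiments (SD, positive in 7 of 9 strains, two-sided exact permutation test of signs, p = 0.0156, adjusted p = 0.0313). In the 7 strains it rose by 0.0456 to 0.0984. The 2 exceptions were 2×Polδ Polε (-0.0037) and 4×Polδ Polε (-0.0032), whereas WT Polε had 0.0634. Each strand correlated with the GC of both neighbours, and more with 1 of them. Across 39585 bins without repeats, the median r over strains between the GC of a bin and its own log2 ratio was 0.462 for the top strand and 0.461 for the bottom strand. For the GC of the bin to the right it was 0.275 for the top strand and 0.132 for the bottom strand, and for the bin to the left 0.127 and 0.281. In 2×Polδ Polε and 4×Polδ Polε, these values lay between 0.0818 and 0.105 for both strands and neighbours. Bins share libraries and base composition, so that these correlations are descriptions.

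**Figure D3:**
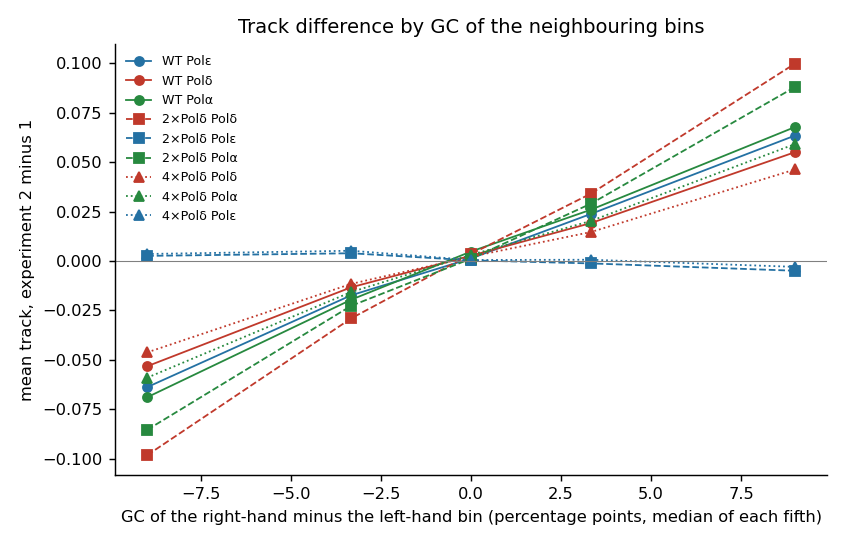
Mean difference in track, experiment 2 minus experiment 1 (y), against the median difference in GC between the right-hand and left-hand neighbouring bin in each of 5 groups of bins, in percentage points (x), with 1 line per strain. From -9 to 9 points, 7 lines climb from between -0.0982 and -0.0462 to between 0.0463 and 0.0999, while 2×Polδ Polε and 4×Polδ Polε stay between -0.0049 and 0.0052.

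Bins that moved as a change in fork direction would were few and small. The largest was III:814801-815100 in gir2, a repeated sequence by the measure used, where the Polδ track went from 0.784 to 0.00861 and the Polα track from 0.732 to 0.0727, but the Polε track only from -0.856 to -0.840. Its mean difference with the sign of Polε turned was -0.484 ± 0.363 (SD, n = 9, strains from -0.813 to -0.0130, adjusted p = 8.97e-06 by edgeR). At III:1253101-1253400, which holds the serine tRNA gene SPOM_SPCTRNASER.10, the tracks went from -0.728, 0.871 and -0.719 (Polδ, Polε and Polα) to -0.301, 0.767 and -0.384. The mitochondrial thioredoxin gene trx2 had 0.405, -0.786 and 0.609 in experiment 1 and 0.0893, -0.669 and 0.204 in experiment 2. In each of these bins the tracks of all 3 polymerases moved towards 0. The other leading bins had mean differences of 0.278 to 0.287 (4 leftward) and of -0.265 and -0.259 (2 rightward). In all 10 leading bins of this contrast the mean Polε track moved less than the mean Polδ track. One of them, II:1952701-1953000, is A/T-rich (19.3% GC) and had positive tracks for Polδ (0.290), Polε (0.365) and Polα (0.133) alike in experiment 1. Only 7 regions of at least 3 called bins were found (2 leftward, 5 rightward), of at most 1.5 kb, among them 1 at gst1 (0.190 ± 0.064) and 1 at poz1, a telomere protein gene (-0.144 ± 0.084). The calls depended on the Polε strains. Without WT Polε, 0.714% and 0.769% of bins were called, without 2×Polδ Polε 0.698% and 0.726%, without 4×Polδ Polε 0.767% and 0.779%, and without both of the latter 4.14% and 4.13%.

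Candidate origins were sought on tracks averaged over both experiments, giving 2700 peaks, called sites below. Of these, 271 had an efficiency of at least 40% (efficient), 214 one of 20% to 40% and 2215 a lower one. At the peak bin of efficient origins, where the track changes sign, total counts were lower in experiment 2 in 9 of 9 strains. The mean log2 scaled total there was -0.62 ± 0.11 in experiment 1 and -2.03 ± 0.37 in experiment 2 (SD, n = 9), a difference of -1.41 ± 0.38 (two-sided exact permutation test of signs, p = 0.00391, adjusted p = 0.0195). The strains ranged from -1.97 in 2×Polδ Polδ to -0.85 in 2×Polδ Polε. The dip was narrow: at 0.9 kb on either side the differences were -0.32 ± 0.22 and -0.17 ± 0.16, and at 3 kb -0.02 ± 0.05 and -0.01 ± 0.05. These bins are poor in GC (mean 25.9% at the peak, 37.1% at 3 kb to the right). Over the peak bins and both neighbours, 453 of 779 bins were called lower (58.2%, against 13.8% of all bins). Their median ratio of -0.92 ± 0.33 was -0.13 relative to bins of the same GC (exact permutation test, adjusted p = 0.0651). By that measure the polymerase means were -0.17 (Polδ), 0.07 (Polε) and -0.27 (Polα), and 3 of 9 strains were higher.

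The change of track across efficient origins was broader in experiment 2 for the lagging-strand polymerases. Width was taken as the distance between 25% and 75% of the step of the mean track. In Polδ strains it was 0.414 ± 0.020 kb in experiment 1 and 0.792 ± 0.058 kb in experiment 2 (SD, n = 3), and in Polα strains 0.275 ± 0.015 and 0.588 ± 0.021 kb. All 6 of these strains were wider in experiment 2, by 0.300 to 0.455 kb. Polε strains had 0.232 ± 0.007 and 0.238 ± 0.022 kb, with differences from -0.0262 to 0.0215 kb. Over the 9 strains the width rose by 0.232 ± 0.176 kb in 8 of 9 (two-sided exact permutation test of signs, p = 0.0156, adjusted p = 0.0313). The differences differed between polymerases (exact permutation test of polymerase labels, p = 0.00714, adjusted p = 0.0238). Bins are 0.3 kb long, so that widths below this length rest on interpolation between bins. In the bins directly beside the peak the same pattern held. To the right of it, the Polδ track of WT went from -0.515 to -0.305 and the Polα track of WT from -0.549 to -0.337, while the Polε track went from 0.673 to 0.573 in WT and from 0.681 to 0.629 in 2×Polδ.

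**Figure D4:**
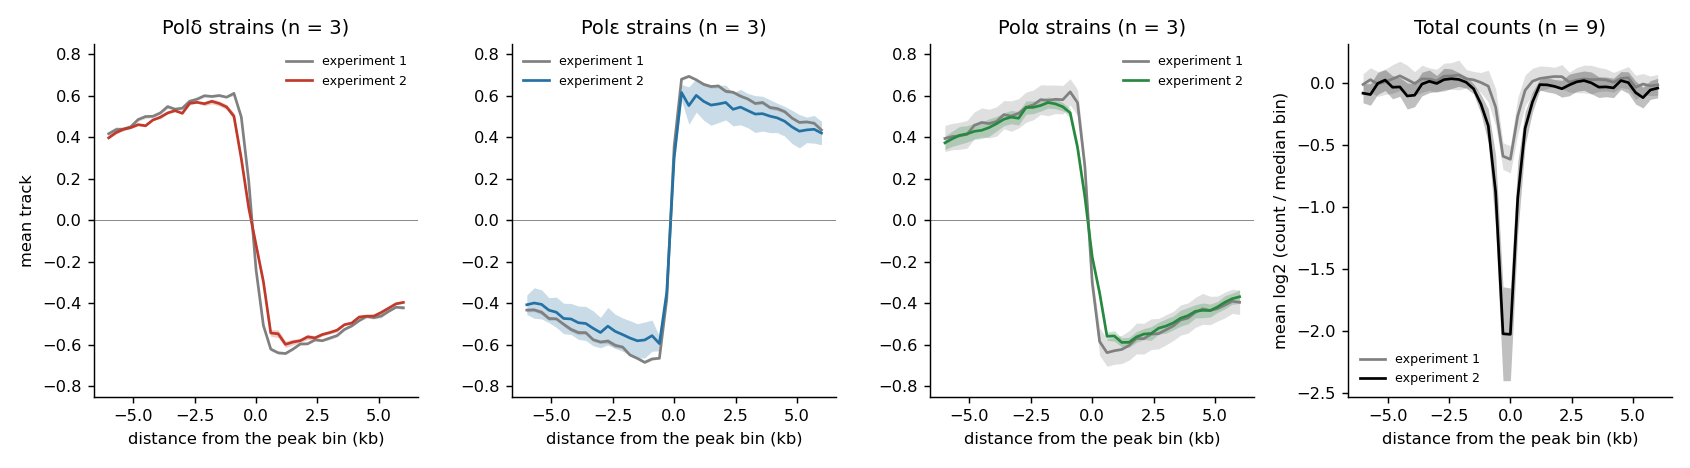
Mean track around the peak bin of the 271 efficient origins for Polδ, Polε and Polα strains (3 panels, n = 3 strains each) and mean log2 scaled total (right panel, n = 9), against distance from the peak bin in kb, with bands of 1 SD. The step broadens from 0.414 to 0.792 kb for Polδ and from 0.275 to 0.588 kb for Polα but not for Polε, and the dip in total counts deepens from -0.62 to -2.03.

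Efficiency, the height of the step across a site in percent, was lower in experiment 2 at efficient origins. Their mean was 64.0% ± 3.69 in experiment 1 and 57.5% ± 4.70 in experiment 2, a difference of -6.50 ± 5.51 percentage points (SD, n = 9, lower in 9 of 9, two-sided exact permutation test of signs, p = 0.00391). The difference was -19.6 points in WT Polε and between -9.67 and -1.58 points in the others. Origins of 20% to 40% went from 31% ± 2.32 to 26.3% ± 3.17, also lower in 9 of 9 strains. Sites under 20% went from 8.43% to 5.41% in Polδ strains and from 7.34% to 4.27% in Polα strains, but from -1.84% to -0.266% in Polε strains. The mean Polε step at these sites thus lacked the sign of an origin, and they were not shown to be places of initiation. With limma paired by strain, 100 of 2700 sites were called lower (3.7%) and 8 higher (0.296%), by an adjusted p under 0.05 and the same sign in all 9 strains. No site was called by limma once efficiencies were scaled by the mean of the efficient origins in each library (420 sites at an unadjusted p under 0.05), and no other tool was run. Without WT Polδ, 2×Polδ Polδ or 2×Polδ Polα, limma also called no site (508, 486 and 500 at an unadjusted p under 0.05). Without WT Polα or 4×Polδ Polδ, 1.78% and 2.15% were lower, and without WT Polε 5.15% were lower and 0.778% higher.

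The site with the largest drop was III:1065301-1065600, from 70.0% ± 10.04 to 56.9% ± 10.7 (adjusted p = 0.0148, limma, n = 9). It lies just inside the left edge of the gap between genes taken as centromere III (III:1064444-1142615). Each polymerase showed the drop, with -14.3 points in Polδ, -12.4 in Polε and -12.9 in Polα strains. Next were II:3491401-3491700 (68.7% to 56.3%), III:1410301-1410600 (75.4% to 63.1%) and II:4236301-4236600 (66.4% to 54.8%), all in lncRNA genes and with 19.3% to 31.7% GC. The last of the 5, II:2142601-2142900 at srp40, differed from these: it had 9.03% ± 11.5 and -2.47% ± 3.82, with -19.6 points in Polα strains and -0.999 in Polε strains. It adjoins the bin with the largest gain in counts. Sites that rose did so from near 0, for example III:814501-814800 in fil1, a transcription factor gene, from 1.32% ± 3.45 to 7.13% ± 4.65, and II:3684601-3684900 in the autophagy gene atg8, from -1.86% ± 1.83 to 3.90% ± 2.48. The other 3 leading sites rose by 4.91 to 6.99 points. The fil1 site lies next to the gir2 bin that led the fork-direction contrast.

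Track amplitude, the SD of the track over 4189 windows of 3 kb, was compared by polymerase. Over all strains it was 0.443 ± 0.031 in experiment 1 and 0.422 ± 0.032 in experiment 2 (SD, n = 9). The difference of -0.0215 ± 0.0327 did not pass (lower in 6 of 9 strains, two-sided exact permutation test of signs, p = 0.0547, adjusted p = 0.0781). In Polδ strains the amplitude was lower in 3 of 3, at 0.440 ± 0.005 and 0.420 ± 0.006, although 3 pairs cannot give a p under 0.25. Polα strains had 0.418 ± 0.041 and 0.404 ± 0.015, with differences of -0.0427 to 0.00872. The values of Polε strains were 0.471 ± 0.006 and 0.441 ± 0.053. The difference was -0.0970 in WT Polε, whereas 2×Polδ Polε and 4×Polδ Polε differed by at most 0.00485. Without WT Polε the mean difference over the remaining strains was -0.0120 ± 0.0175 and did not pass (lower in 5 of 8 strains, exact permutation test of signs, p = 0.109). The mean differences of the 3 polymerases spanned 0.0162, and the exact permutation test of polymerase labels gave p = 0.954. By the mean track height 0.9 to 3 kb beside efficient origins, the amplitude was lower in 8 of 9 strains, by 0.0465 ± 0.0557 (p = 0.00781 in the same permutation test of signs), and at 300 bp resolution with the counting variance removed it fell by 0.0224 ± 0.0235, also in 8 of 9 (p = 0.00781). WT Polε alone differed by -0.180 in height beside origins, and without it the mean was -0.0298 ± 0.0257 (lower in 7 of 8 strains, exact permutation test, p = 0.0156).

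**Figure D5:**
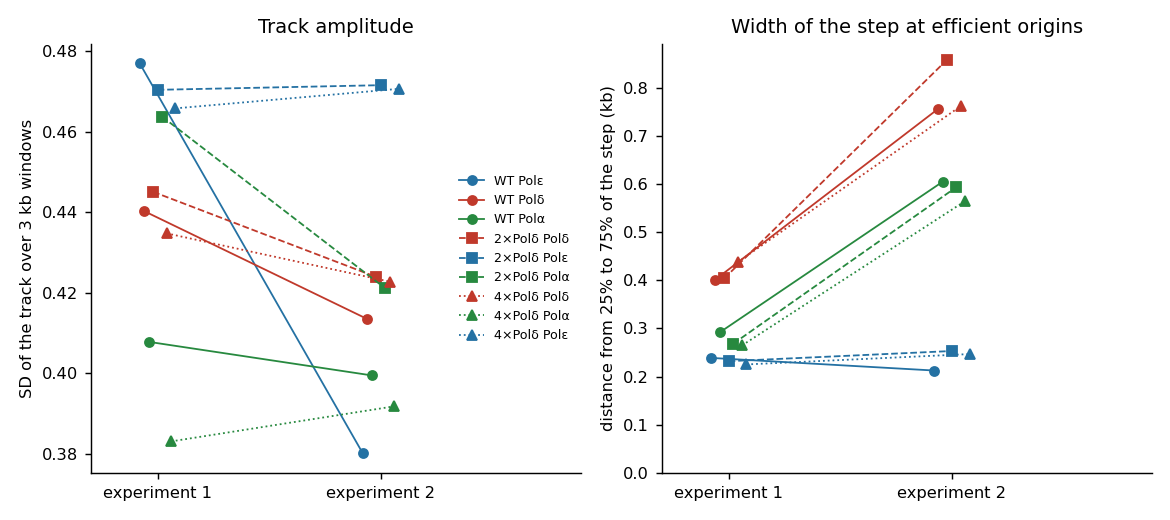
Track amplitude (left, SD of the track over 3 kb windows, on an axis that does not start at 0) and width of the track step at efficient origins (right, kb) in each strain in experiments 1 and 2, with lines joining the libraries of a strain. The amplitude differs by -0.0970 in WT Polε, and the width rises by 0.300 to 0.455 kb in the 6 strains for Polδ and Polα.

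In part of the bins, the difference between experiments in total counts differed between the polymerase groups. The polymerase-by-experiment term of the edgeR fit was past an adjusted p of 0.05 in 8272 of 41859 bins (19.8%), a test with no rule on size or sign. Without 2×Polδ Polε and 4×Polδ Polε the share was 12.9%, and without WT Polε 27.6%. By genotype the corresponding term was past the threshold in 0 bins (0%), with 771 bins at an unadjusted p under 0.05 by edgeR, and no other tool was run for it. That fit held no polymerase-by-experiment term, so differences between polymerases widen its residual spread. It cannot show whether genotype mattered within the strains of 1 polymerase. For tRNA genes the polymerase means were -0.85 (Polδ), -0.52 (Polε) and -0.78 (Polα), and for peak bins of efficient origins with both neighbours -1.09, -0.62 and -1.05. In each case WT Polε lay among the Polδ and Polα strains and 2×Polδ Polε and 4×Polδ Polε were closest to 0. The weaker Polε means thus rest on these 2 strains.

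Counts over the Polδ genes followed the genotype in both experiments. The mean ratio of the 4 genes to the WT strain of the same polymerase and experiment was 2.00 ± 0.06 and 2.03 ± 0.03 in 2×Polδ (SD, n = 3 strains), and 3.73 ± 0.41 and 3.81 ± 0.29 in 4×Polδ, in experiments 1 and 2. The difference was 0.0496 ± 0.103 (n = 6, strains from -0.0739 to 0.185, two-sided exact permutation test of signs, p = 0.281, where 6 pairs allow no p below 0.0312). The lowest 4×Polδ ratio was that of the Polδ strain in both experiments (3.30 and 3.48). In it, cdc1 had ratios of 2.58 and 2.88, and cdc27 2.79 and 3.32, beside 3.88 in both for cdc6. Because the ratio is taken within an experiment, the fall of counts over cdc27 between experiments does not enter it.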

How the data were processed

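The authors aligned reads with Bowtie2 (its version is not given in the sources used here) and deposited unnormalized counts of ribonucleotides per strand in 300 bp bins. The submitters' processing notes name build ASM294v2. All 41908 bins fit the chromosome lengths of ASM294v3, whose RefSeq annotation was used. No source used here gives filters on mapping quality or on reads from repeats.

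The 2 runs of experiment 1 were summed. Totals were divided by the library's median bin, and log2 ratios used a pseudocount of 0.5 counts. For bins with at least 10 counts in every library, edgeR 4.0.16 (quasi-likelihood test, R 4.3.3) was fitted with strain as block, since the same strain was used in both experiments. The strand contrasts used strand-by-strain and strand-by-experiment terms. Origin efficiencies were tested with limma 3.58.1, and single values with exact permutation tests over all arrangements, two-sided for signs, computed with numpy 2.4.6. Repeated bins (2277) share 31-mers over more than 10% of their length with other places. On simulated data with 41859 bins, the total-count test recovered 99% of 100 changes of 0.585 and 100% of changes of 1 on the log2 scale (11 false calls), the same-strand test 45% and 100%, and the fork-direction test 47% and 100%. The origin test recovered 79% of 200 changes of 10 points among 2700 sites (7 false calls). In each simulation, recovery was scored by adjusted p alone, without the rules on sign or size that define a call. The bin simulations changed 200 bins only and set a fixed spread between libraries that was not estimated from these data. Recovery may therefore differ for the calls above.

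Members, classes and lists were chosen with earlier results of these data known. Bins and origins were named from the 5 highest and 5 lowest called items of each test by mean difference, with the rest of these given by range. Also named were the regions they form and 31 genes and repeats; 2 of the 5 lowest bins by total counts are not reported here. The sequences, the longest regions, the genes beyond that rule, the tests on GC content, A/T runs, peak bins and step width between polymerases, the ratios at the same GC and the fits without 2×Polδ Polε and 4×Polδ Polε, and the origin height without WT Polε were chosen after seeing the data. Alternatives were DESeq2 1.42.0, TMM scaling, no strain block, count minimums, window size, other definitions and each strain left out. Counts are reads without molecular identifiers, so counting error is a lower bound on error.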

Additional observations from a re-analysis of the deposited data

Results flagged for a closer look

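The fall in track amplitude of WT Polε, -0.0970 on the SD of the track, stood apart from the other 8 strains, with a gap to the next of 0.514 of the whole range. Among classes, the GC-richest quintile had its highest ratio in 2×Polδ Polδ (0.36 on the log2 scale, gap 0.561 of the range), and among genes, htb1 had its lowest in 2×Polδ Polα (-0.44, gap 0.510). Chance flags about 1 in 20 groups, and 3 of 67 were flagged here.

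Polymerases differed in how total counts changed between experiments (19.8% of bins, edgeR's interaction term with Benjamini-Hochberg adjustment), and in how the width of the track step at efficient origins changed (adjusted p = 0.0238, exact permutation test). In the strains for Polε, WT went with the Polδ and Polα strains in total counts and in the GC gradient of the track, but with the other 2 Polε strains in width.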

How the results depend on the processing

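Shares of bins called for total counts moved with window and fold. In 3 kb windows they were 0.0716% higher and 0.788% lower, at a fold of at least 2 they were 0.299% and 6.34%, and within Polδ strains alone 7.19% were higher. DESeq2, TMM scaling, count minimums, the first run alone, unrepeated bins and each strain left out moved neither share by over 1.5 times. Leaving the strain out as a block, in place of the paired fit, gave 4.50% and 13.8%. For strand bias, 3 kb windows gave 2.70% and 2.39% by the same-strand contrast and 0.239% and 0.239% by fork direction. Leaving strains out loosens the rule of 1 sign in all strains, which can raise the shares below by itself. Fork-direction calls ranged from 0.377% to 0.767% (leftward) and from 0.449% to 0.779% (rightward) with each strain left out, and reached 4.14% and 4.13% without 2×Polδ Polε and 4×Polδ Polε. The polymerase-by-experiment share was then 12.9%.

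Amplitude passed an unadjusted p of 0.05 at 300 bp (-0.0224), by height beside origins (-0.0465) and without 2×Polδ Polε and 4×Polδ Polε (-0.0285). With each strain left out it ranged from -0.0252 to -0.0120. For origin efficiency, the fit without the strain block called 0.481% higher. Scaled efficiencies gave 0% higher and 0% lower (limma, 420 sites at an unadjusted p under 0.05), origins of experiment 1 alone 0% higher, and origins of experiment 2 alone 0.801% higher and 1.40% lower. Shares ranged from 0% to 0.778% higher and from 0% to 5.15% lower with each strain left out. The peak bins of efficient origins lost their call relative to the same GC (-0.13). Without WT Polε, the height beside origins gave -0.0298. Signs turned for protein-coding genes by the mean (-0.039), for lncRNA genes with TMM scaling (0.025) or the same GC (0.0030), and at the same GC for Tf2 retrotransposons (0.0369), wtf genes (0.0253), the third GC quintile (-0.000793) and the outer 50 kb of chromosome II (0.0042). The cause was not tested. Experiment 2 was shallower, and thinning every library to 16062711 counts moved the amplitude to -0.0216 and the rise in width to 0.233 kb.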
